A study of Mus musculus with 4 samples.

Results

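The genes that encode the chains of the IL-3 receptor and its nearest relatives in the mouse, Il3ra, Csf2ra, Il5ra, Csf2rb and Csf2rb2, were followed in 32Dcl3-Abl1ko cells that grew with or without IL-3. They were chosen by gene symbol, and all 5 were found among the 23756 genes of the deposited table. 32Dcl3 is a myeloid cell line from mouse bone marrow that normally needs IL-3 to live. In all libraries described here the Abl1 gene had been edited by CRISPR/Cas9 delivered with a lentivirus. RNA-seq was available for Abl1ko/IL3+ cells, kept with IL-3 (n = 2 libraries), and Abl1ko/IL3- cells, which had come through IL-3 withdrawal and grew without it (n = 2 libraries). Unedited 32Dcl3 cells were not analysed here, so the comparison concerns IL-3 in edited cells. According to the methods single clones were picked after editing, but nothing ties a clone or a guide to a library, and the p-values measure the spread between these libraries only.

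IL-3, GM-CSF and IL-5 are hematopoietic cytokines with receptors built in the same way. A private alpha chain (Il3ra, Csf2ra or Il5ra) binds its own cytokine with low affinity, and the common beta chain, Csf2rb, joins to give high affinity and carries the signal. Mice have a further beta chain, Csf2rb2, which works in the IL-3 receptor only. Beta chains have no kinase domain of their own. They hold JAK2, which phosphorylates them on tyrosines that recruit STAT5 and SHC. In this way the receptor feeds survival and growth in myeloid progenitors, mast cells and basophils.

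The deposited values were raw read counts per gene and FPKM, the same counts divided by gene length and depth. Library totals lay between 48953174 and 60382588 counts. Below, CPM stands for a gene's counts scaled to library sizes adjusted by edgeR's TMM method, and FPKM is used wherever different genes are compared. A count of 0 allows up to 3 counts, which was between 0.0465 and 0.0627 CPM, a limit for counting error only. Abl1 was counted 1322 and 2222 times in the IL3+ libraries and 1544 and 2256 times in the IL3- libraries. Reads of an edited gene are still counted, so this level does not check the editing. The Pearson correlation of log2 CPM over genes was 0.910 between the libraries with IL-3 and 0.944 between those without, against 0.896 to 0.926 across groups, so the IL3+ replicates were about as far apart as libraries of different groups. The labels call the cells pre-B cells. Of 12 pre-B cell markers 7 were in the table, with a summed level of 12.4 to 15.4 FPKM over the 4 libraries. Most of that came from Cd79b, a subunit of the B cell antigen receptor, at 6.24 to 10.9 FPKM, and Cd79a, its partner, at 0.431 to 6.41 FPKM. Rag1, a recombinase of early lymphocytes, was at 0 counts in 3 libraries and at 4 counts in the other. The 8 markers of granulocyte-monocyte progenitors and primary granules summed to 1217 and 1030 FPKM with IL-3 and to 747 and 721 FPKM without it. The sum was led by Mpo, the peroxidase of primary granules (528 and 346 FPKM with IL-3, 227 and 135 FPKM without), and Ms4a3, a membrane protein of granulocyte-monocyte progenitors (231 and 259 FPKM with IL-3, 234 and 204 FPKM without). These levels go against the labelled cell type, since Mpo and Ms4a3 are genes of myeloid cells.

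The beta chain genes lie side by side and are near copies, which matters for how their reads can be told apart. Csf2rb (ENSMUSG00000071713) is at chr15:78325752-78351001 on the plus strand and Csf2rb2 (ENSMUSG00000071714) at chr15:78282507-78305721 on the minus strand, in the GRCm38 coordinates of the files. In the GENCODE M21 transcripts ENSMUST00000096355 (Csf2rb) and ENSMUST00000096356 (Csf2rb2), the coding sequences of 2688 and 2634 bases were identical at 2503 of 2628 aligned bases (95.2%). Of the words of 50 bases in the Csf2rb coding sequence, 26.2% also occurred in a Csf2rb2 transcript, and of words of 100 bases 11.0%. For Csf2rb2 against Csf2rb the shares were 26.6% and 11.3%. Reads from the shared words cannot be assigned by sequence. The lengths of 50 and 100 bases were chosen here, since the read length is not given in the sources used here. The coding window of 60 bases in which the genes differed most, at 13 positions, is shown first because reads across it separate them. It lies in exon 4 of 14 of both genes (chr15:78338893-78338952, plus strand, and chr15:78294379-78294438, minus strand), and capitals mark the bases that differ.
Csf2rb: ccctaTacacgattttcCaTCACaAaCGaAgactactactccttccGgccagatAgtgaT
Csf2rb2: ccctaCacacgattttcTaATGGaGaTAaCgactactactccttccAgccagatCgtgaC
The longest identical coding run within an exon, 242 bases in exon 14 of both genes, is shown because reads inside it cannot be assigned to either gene. It lies at chr15:78348577-78348818 in Csf2rb and at chr15:78284630-78284871 in Csf2rb2, has no capitals because no base differs, and encodes part of the intracellular tail.
both genes: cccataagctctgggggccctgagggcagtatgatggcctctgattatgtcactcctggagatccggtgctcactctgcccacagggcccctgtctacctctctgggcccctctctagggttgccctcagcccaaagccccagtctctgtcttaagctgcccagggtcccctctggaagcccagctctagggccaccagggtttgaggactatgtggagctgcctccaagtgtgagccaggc
Each gene also holds an annotated microRNA (Mir7676-2 in Csf2rb and Mir7676-1 in Csf2rb2) that overlaps 62 bases of its exons. How the counting treated reads that fit both genes is not given in the sources used here, so single values of Csf2rb and Csf2rb2 are uncertain while their sum is less exposed.

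Of the alpha chains only Il3ra was expressed above the level of a few counts. Il3ra (ENSMUSG00000068758, chr14:14346275-14355493, plus strand) binds IL-3. The IL3+ libraries held 2456 and 6380 counts and the IL3- libraries 4877 and 3409, or 38.1 and 117 CPM with IL-3 and 102 and 58.7 CPM without. Both IL3- libraries lay between the IL3+ libraries, which were themselves 3.08-fold apart. The means were 77.7 ± 56.0 CPM with IL-3 and 80.3 ± 30.5 CPM without (SD, n = 2). Between the groups (IL3- over IL3+) the log2 fold change came to 0.05 (standard error 0.63, 95% interval -1.58 to 1.67, Benjamini-Hochberg adjusted p = 0.999 in the quasi-likelihood test of edgeR over 16535 genes). The interval spans 0.335-fold to 3.19-fold, so a moderate change of Il3ra either way was not detectable with these libraries. The direction rested on single libraries: the log2 fold change was -0.53 without IL3+ replicate 1 and 1.08 without IL3+ replicate 2. Il3ra exons overlap those of Gm48860, a gene on the other strand, by 46 bases, and whether the counting used strand is not stated in the sources used here.

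Csf2ra and Il5ra, the alpha chains for GM-CSF and IL-5, were at or near 0. Csf2ra (ENSMUSG00000059326, chr19:61223957-61228429, minus strand) had 0 counts in both libraries with IL-3, and 0 and 8 counts in replicates 1 and 2 without it. The 8 counts equal 0.138 CPM. Il5ra (ENSMUSG00000005364, chr6:106710357-106749037, minus strand) had 14 counts, or 0.217 CPM, in IL3+ replicate 1 and 0 counts in the other 3 libraries. Each of these genes was thus counted in a single library, Csf2ra without IL-3 and Il5ra with it. Neither passed the expression filter, and neither was tested in the fit described here. In a fit with no filter their adjusted p-values were both 0.885 (edgeR's quasi-likelihood test). Low counts (1 to 20) were more often even than odd, being even in 57.7% to 59.9% of genes per library, and both counts given here are even. Whether mates of a read pair were counted separately was not tested. If they were, the limits given for counting error are too narrow.

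**Figure D1:**
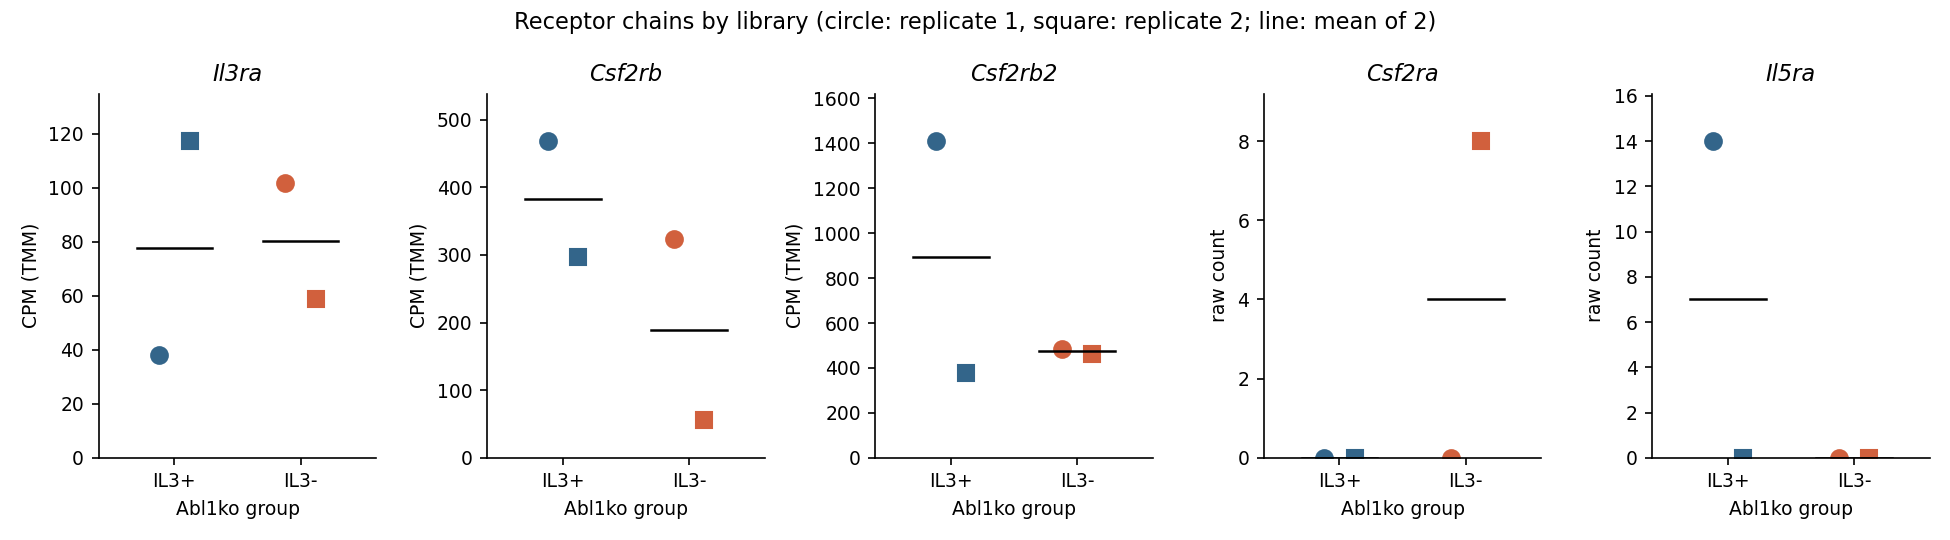
Level of each receptor chain gene in each library: CPM on TMM-scaled library sizes for Il3ra, Csf2rb and Csf2rb2, raw counts for Csf2ra and Il5ra, with separate axes that start at 0. Blue is Abl1ko/IL3+, orange Abl1ko/IL3-, circles are replicate 1, squares replicate 2 and lines the mean of 2 libraries. For Il3ra, Csf2rb and Csf2rb2 the groups overlap, and Csf2ra and Il5ra are above 0 in 1 library each.

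The common beta chain gene, Csf2rb, had a lower fitted value without IL-3 that rested largely on a single library. The IL3+ libraries held 30196 and 16108 counts and the IL3- libraries 15487 and 3224, or 468 and 296 CPM with IL-3 and 324 and 55.5 CPM without. IL3- replicate 1 lay between the IL3+ libraries, while IL3- replicate 2 was below the other 3. The means were 382 ± 122 CPM with IL-3 and 190 ± 190 CPM without (SD, n = 2), and the replicates without IL-3 were 5.83-fold apart. The log2 fold change was -1.01 (standard error 0.85, 95% interval -3.21 to 1.18, Benjamini-Hochberg adjusted p = 0.924 in the quasi-likelihood test of edgeR). It was -0.24 without IL3- replicate 2 and -2.78 without IL3- replicate 1. The library with the lowest Csf2rb had the highest sum of the 8 neutrophil markers. They summed to 4162 FPKM there, to 792 FPKM in IL3- replicate 1 and to 596 and 177 FPKM in the IL3+ libraries. Ngp, a protein of secondary granules, gave most of the sum in that library, at 3031 FPKM. S100a9, a calcium-binding protein of neutrophils, stood at 657 FPKM there. Mmp8, a collagenase of neutrophil granules, ran differently, with 0 counts in both IL3+ libraries and 18 and 7 counts in IL3- replicates 1 and 2. Of the 8 markers 7 passed the expression filter. Of these 7, 5 had an unadjusted p under 0.05, against 5.91% of all genes tested, and these 5 were higher in both IL3- libraries than in both IL3+ libraries, against 19.4% of all genes tested, and 0 had an adjusted p under 0.05 in edgeR's test. The part of neutrophil RNA in the Csf2rb level was not tested, and in bulk RNA fewer cells that express a gene and less of its RNA per cell cannot be told apart.

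Csf2rb2, the beta chain that serves IL-3 alone, had the highest FPKM of the 24 cytokine receptor chains compared, in every library. The IL3+ libraries held 90923 and 20532 counts and the IL3- libraries 23221 and 26881, or 1411 and 378 CPM with IL-3 and 485 and 463 CPM without. IL3+ replicate 1 stood above the other 3 libraries, which lay close together, with the lowest value in the other IL3+ library. The replicates were 3.74-fold apart with IL-3 and 1.05-fold apart without it, with means of 894 ± 730 CPM and 474 ± 15.6 CPM (SD, n = 2). The log2 fold change was -0.92 (standard error 0.67, 95% interval -2.63 to 0.80, Benjamini-Hochberg adjusted p = 0.905 in the quasi-likelihood test of edgeR). Without IL3+ replicate 1 it turned to 0.34. The 8 mast cell and basophil markers summed to 421 and 59.4 FPKM in IL3+ replicates 1 and 2. In IL3- replicates 1 and 2 they summed to 120 and 94.6 FPKM. The sum in IL3+ replicate 1 was made up mostly of Cpa3 and Fcer1a. Like the sum, Csf2rb2 was highest in IL3+ replicate 1 and lowest in IL3+ replicate 2. Between the IL3- libraries the order of Csf2rb2 depended on the unit. It was slightly higher in replicate 1 in CPM, but in FPKM it was 87.5 in replicate 1 and 90.4 in replicate 2. Cpa3, carboxypeptidase of mast cells, was at 198 and 13.6 FPKM with IL-3 and 24.0 and 28.6 FPKM without, and Fcer1a, the alpha chain of the IgE receptor, at 187 and 1.03 FPKM with IL-3 and at least 21.0 FPKM in each IL3- library. Other markers of the list ran differently: Mcpt8, a protease of basophils, was lowest in IL3+ replicate 1, at 18.3 FPKM against 40.5, 60.6 and 31.4 FPKM in IL3+ replicate 2 and IL3- replicates 1 and 2, and Ms4a2 and Hdc were highest in IL3+ replicate 2, at 0.969 and 0.810 FPKM. Tpsb2, a tryptase of mast cells, was at 0 counts in 3 libraries and 4 counts in IL3+ replicate 1, and 7 of the 8 markers passed the expression filter. The sum of the macrophage markers, 7 of 8 of them in the table, was also highest in IL3+ replicate 1, at 133 FPKM against 22.6, 34.6 and 72.0 FPKM in IL3+ replicate 2 and IL3- replicates 1 and 2. Adgre1, a surface marker of macrophages, was at 59.6 FPKM and Cd68, a lysosomal protein of phagocytes, at 56.7 FPKM there, while Fcgr1, an IgG receptor, was lowest there, at 1.90 FPKM, and Cd14, a receptor for lipopolysaccharide, was highest in IL3- replicate 2, at 5.42 FPKM. The part of these markers in the Csf2rb2 level was not tested.

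Summed over both beta chain genes, which depends less on how shared reads were split, the IL3+ libraries held 121119 and 36640 counts and the IL3- libraries 38708 and 30105, or 1879 and 674 CPM with IL-3 and 809 and 519 CPM without. IL3- replicate 1 again lay between the IL3+ libraries, and IL3- replicate 2 was the lowest of the 4. The log2 fold change of the sum was -0.94 (standard error 0.60, 95% interval -2.49 to 0.60, Benjamini-Hochberg adjusted p = 0.895 in the quasi-likelihood test of edgeR). Without IL3+ replicate 1 it was -0.01, so the lower fitted value without IL-3 rested largely on that library.

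**Figure D2:**
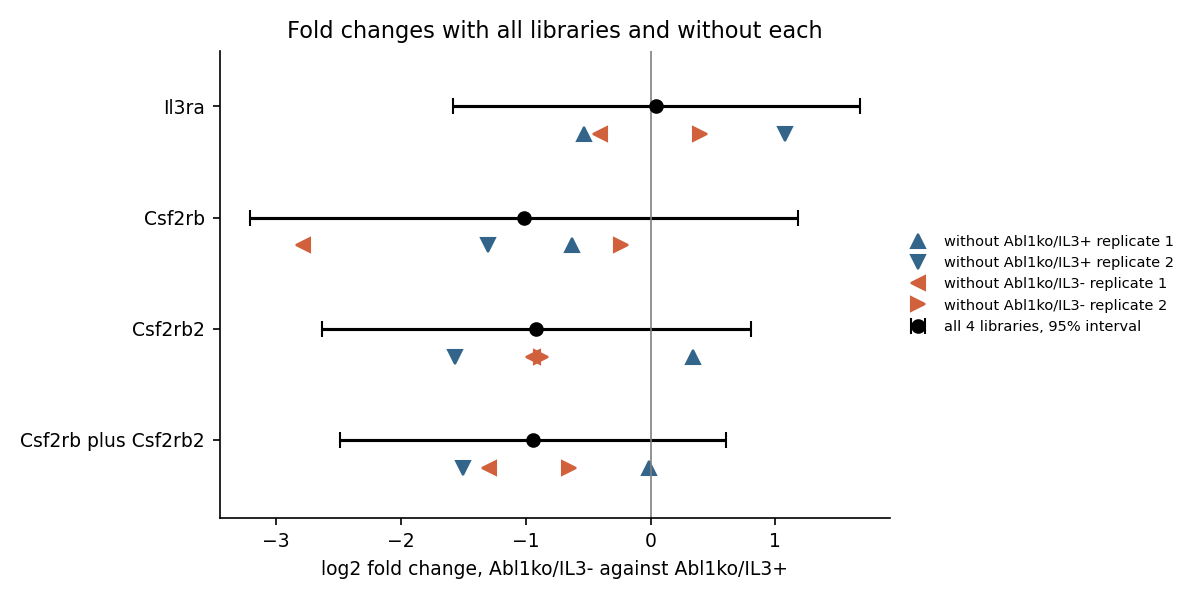
Log2 fold change of Abl1ko/IL3- against Abl1ko/IL3+ for Il3ra, Csf2rb, Csf2rb2 and the sum of the beta chain genes. Black points are fits on all 4 libraries with the 95% interval, and triangles are fits without 1 library each. All intervals cross 0, and for Il3ra and Csf2rb2 the sign depends on which library is left out.

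The threshold of an adjusted p under 0.05 was passed by 0 of the 3 receptor genes tested, and by 0 of 16535 genes, or 0% (edgeR's quasi-likelihood test). An unadjusted p under 0.05 was reached by 0 of the 3 and by 978 of all genes, or 5.91%. DESeq2's Wald test called 271 of all genes and again 0 of the 3. With 2 libraries a group, the IL3- and IL3+ values did not overlap for 37.3% of all genes tested, and they overlapped for all 3 receptor genes.

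Csf2rb2 gave most of the beta chain counts in every library, and its share spread more between replicates than between the group means. Csf2rb2 made up 75.1% (exact binomial 95% interval 74.8% to 75.3%) and 56.0% (55.5% to 56.5%) of the counts of the 2 genes in IL3+ replicates 1 and 2. In IL3- replicates 1 and 2 it made up 59.99% (59.5% to 60.5%) and 89.3% (88.9% to 89.6%). The intervals cover counting error only and do not overlap, so every library differed from every other by more than counting error. The lowest share was in a library with IL-3 and the highest in a library without it, and the other 2 lay between. The mean share was 65.6 ± 13.5% with IL-3 and 74.6 ± 20.7% without (SD, n = 2), a difference of 9.09 percentage points (two-sided exact permutation test over libraries, p = 0.667, where 0.333 is the smallest p that 2 against 2 libraries allow). The difference was -5.56 percentage points without IL3- replicate 2, the library with little Csf2rb, and -0.43 without IL3+ replicate 2.

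Per length, Csf2rb2 was above Csf2rb in every library. Csf2rb2 stood at 286 and 63.8 FPKM with IL-3 and 87.5 and 90.4 FPKM without, and Csf2rb at 61.9 and 32.6 FPKM with IL-3 and 38.0 and 7.06 FPKM without. The ratio of the 2 levels was 4.62 and 1.96 with IL-3 and 2.30 and 12.8 without. Il3ra stood at 12.3 and 31.7 FPKM with IL-3 and 29.3 and 18.3 FPKM without. It was below Csf2rb in 3 libraries and above it in IL3- replicate 2. The order Csf2rb2, Csf2rb, Il3ra therefore held in 3 of 4 libraries, and in IL3+ replicate 2 the levels of Csf2rb and Il3ra were nearly equal.

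The balance of beta to alpha chain RNA set IL3+ replicate 1 apart. The summed beta chain level was 28.2 times that of Il3ra in this library and 3.04 times in IL3+ replicate 2, against 4.28 and 5.33 times in IL3- replicates 1 and 2. The library with the most Csf2rb2 had the least Il3ra, and the library with the least Csf2rb2 had the most Il3ra. The mean of log2 of the ratio was 3.21 ± 2.27 with IL-3 and 2.25 ± 0.22 without (SD, n = 2; difference -0.96, two-sided exact permutation test, p = 1). Both IL3- values lay between the IL3+ values.

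**Figure D3:**
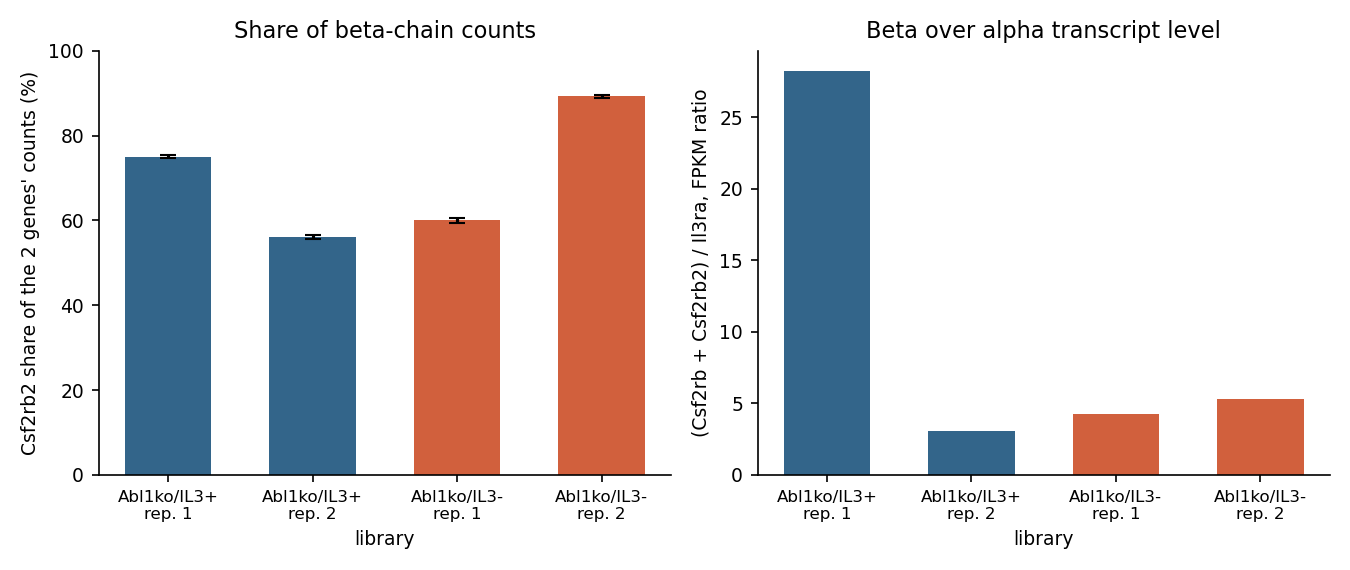
Left, share of Csf2rb2 in the summed counts of Csf2rb and Csf2rb2 in each library, in percent, with exact binomial 95% intervals as error bars. Right, summed FPKM of Csf2rb and Csf2rb2 divided by the FPKM of Il3ra. Blue bars are Abl1ko/IL3+ and orange bars Abl1ko/IL3-. The share runs from 56.0% to 89.3%, and the ratio is 28.2 in IL3+ replicate 1 and at most 5.33 in the other libraries.

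Set beside 19 other cytokine receptor chains in the table, Csf2rb2 ranked first of 24 by FPKM in all 4 libraries. The highest chain outside the family was Il2rg, the common gamma chain of lymphoid cytokine receptors, in every library, at 45.3 and 48.1 FPKM with IL-3 and 25.7 and 28.1 FPKM without. Csf2rb ranked 2 and 3 with IL-3 and 2 and 12 without, and Il3ra ranked 7 and 4 with IL-3 and 3 and 5 without. Csf2ra and Il5ra ranked 18 or lower in every library. In the whole table Csf2rb2 was at rank 214 and 906 with IL-3 and 621 and 624 without, of 23756 genes.

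**Figure D4:**
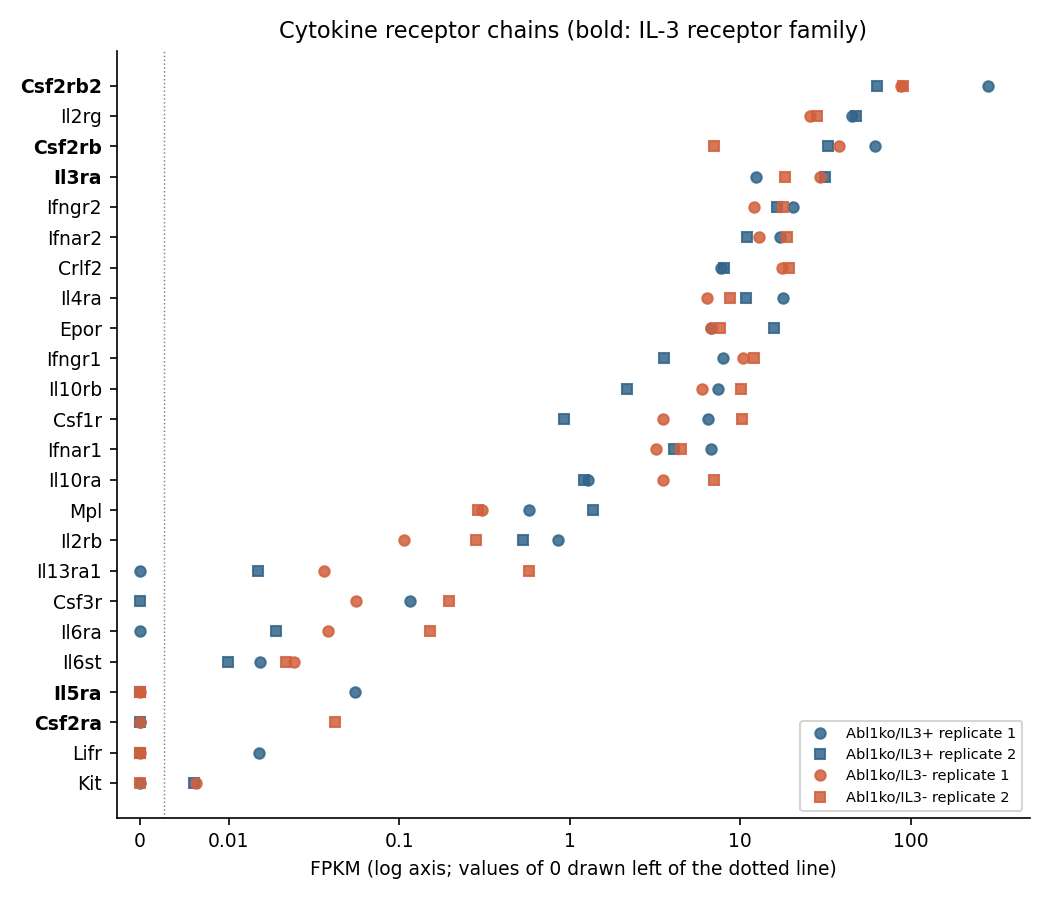
FPKM of 24 cytokine receptor chain genes in each library on a log axis, sorted by the mean over the 4 libraries, with values of 0 drawn left of the dotted line. Blue is Abl1ko/IL3+, orange Abl1ko/IL3-, circles are replicate 1 and squares replicate 2. Csf2rb2 is the highest gene in every library, from 63.8 to 286 FPKM, and Csf2ra and Il5ra are at 0 in 3 libraries each.

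Over the 4 libraries Il3ra varied 3.08-fold, Csf2rb2 3.73-fold and Csf2rb 8.43-fold on the log2 CPM scale used for profiles. Their ranges lay at percentiles 64.0, 71.3 and 87.7 of all genes tested, so Csf2rb was among the more variable genes. Profiles were compared by the root mean square distance of log2 CPM, each gene centred on its own mean over the 4 libraries. Nearest to Il3ra were Mtfp1 (0.029), Sars2 (0.039) and Lipt2 (0.040), and 287 of 16534 genes lay within 0.2. Nearest to Csf2rb were Zmym4 (0.057), Zfp322a (0.089) and Zcchc14 (0.12), with 11 genes within 0.2. Zcchc14 had no more than 19 counts in any library. Nearest to Csf2rb2 were Trp53cor1 (0.079) and Map4k2 (0.081), with 55 genes within 0.2. Csf2rb thus had the fewest near neighbours of the 3. The distance was not scaled to a gene's range, and the neighbours fell in number as the range rose. The count is therefore not a trait separate from the range. With 4 libraries such likeness only describes these samples.

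Of the ligands of the family only Il5 could be examined. It was at 0 and 4 counts in the IL3+ libraries and 12 and 0 counts in the IL3- libraries, and did not pass the filter. Il3 and Csf2 were not found by symbol among the 23756 genes, so no level can be given for them.

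The list of IL-3 receptor pathway genes held 49, among them 6 transcription factors known at the promoters of these receptor genes. Of the 49, 46 were tested, the other 3 being the ligands. None had an adjusted p under 0.05 in edgeR's quasi-likelihood test (lowest 0.854), 0 had an unadjusted one, and DESeq2 called 0. The median log2 fold change was -0.19, against -0.03 for all genes tested, with 17 fitted values above 0 and 29 below. The IL3- libraries were both above the IL3+ libraries for 3 genes and both below for 5 of the 46 in CPM, where these patterns were found for 19.4% and 17.9% of all genes tested.

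Among 11 kinases and STAT factors the median log2 fold change was -0.16. The groups overlapped for every gene, where 37.3% of all genes tested did not overlap. Jak2, the kinase held by the beta chains, had 35.3 and 13.5 FPKM with IL-3 and 17.3 and 22.9 FPKM without. Stat5a and Stat5b, the factors it activates, differed by log2 fold changes of 0.03 and -0.24. Jak1, a kinase of many cytokine receptors, had 17430 and 6488 counts in IL3+ cells and 5893 and 9115 in IL3- cells (log2 fold change -0.48, adjusted p = 0.940 in edgeR).

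Of 8 adaptor and PI3K genes 7 had fitted values below 0. Their median log2 fold change was -0.15, against -0.03 for all genes tested. The groups again overlapped for all 8, where 37.3% of all genes tested did not overlap. Gab2, an adaptor that carries the signal to PI3K, had 25.1 and 8.41 FPKM with IL-3 and 11.3 and 0.832 FPKM without (log2 fold change -1.37, adjusted p = 0.931 in edgeR). As for Csf2rb, IL3- replicate 2 was the lowest library for Gab2. Pik3ca, a catalytic subunit of PI3K, had 3.62 and 0.722 FPKM with IL-3 and 0.557 and 1.16 FPKM without (log2 fold change -1.29, adjusted p = 0.892).

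Of 5 phosphatases and ubiquitin ligases, Cbl, a ligase that marks activated receptors and kinases for degradation, had 3.88 and 4.61 FPKM with IL-3 and 6.40 and 8.36 FPKM without (log2 fold change 0.76, adjusted p = 0.855 in edgeR). Ptpn11, the phosphatase SHP2 that binds the beta chains, had 18.1 and 14.4 FPKM with IL-3 and 10.4 and 12.2 FPKM without (log2 fold change -0.54, adjusted p = 0.873). The groups did not overlap for these genes and overlapped for the other 3, where 37.3% of all genes tested did not overlap.

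The 16 feedback and target genes showed 10 fitted values above 0 and 6 below, and their median log2 fold change was 0.13. Cish, a feedback inhibitor induced by STAT5, had 13.4 and 4.80 FPKM with IL-3 and 9.06 and 19.0 FPKM without (log2 fold change 0.65, adjusted p = 0.929 in edgeR). Pim1, a survival kinase also induced by STAT5, had 112 and 67.4 FPKM with IL-3 and 16.8 and 78.6 FPKM without (log2 fold change -0.94, adjusted p = 0.919). Cish was highest and Pim1 lowest in an IL3- library, and for both the other IL3- library lay within the IL3+ values. The largest fitted values were those of Fos, an immediate early transcription factor, at 19 and 12 counts in IL3+ cells and 21 and 119 in IL3- cells (log2 fold change 2.26, adjusted p = 0.854), and of Ccnd3, a G1 cyclin, with 11.8 and 5.13 FPKM with IL-3 and 6.12 and 32.9 FPKM without (log2 fold change 1.19, adjusted p = 0.900).

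Among 6 transcription factors known at the promoters of these receptor genes, 5 had fitted values below 0. Gata1, a factor of erythroid, mast and eosinophil cells, had 84.8 and 120 FPKM with IL-3 and 59.0 and 57.2 FPKM without. Its log2 fold change was -0.86 (adjusted p = 0.854 in edgeR). Both IL3- libraries were below the IL3+ libraries for 2 of the 6, Gata1 among them, where 17.9% of all genes tested showed this pattern. Cebpa, a factor of granulocyte and macrophage progenitors, had 53.0 and 15.1 FPKM with IL-3 and 17.1 and 23.1 FPKM without (log2 fold change -0.72, adjusted p = 0.919). Like Csf2rb2, Cebpa was highest in IL3+ replicate 1, with the other 3 libraries closer together. Runx1, of the same list, and Jak1 and Pik3ca showed this too, so the pattern was not particular to Cebpa.

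**Figure D5:**
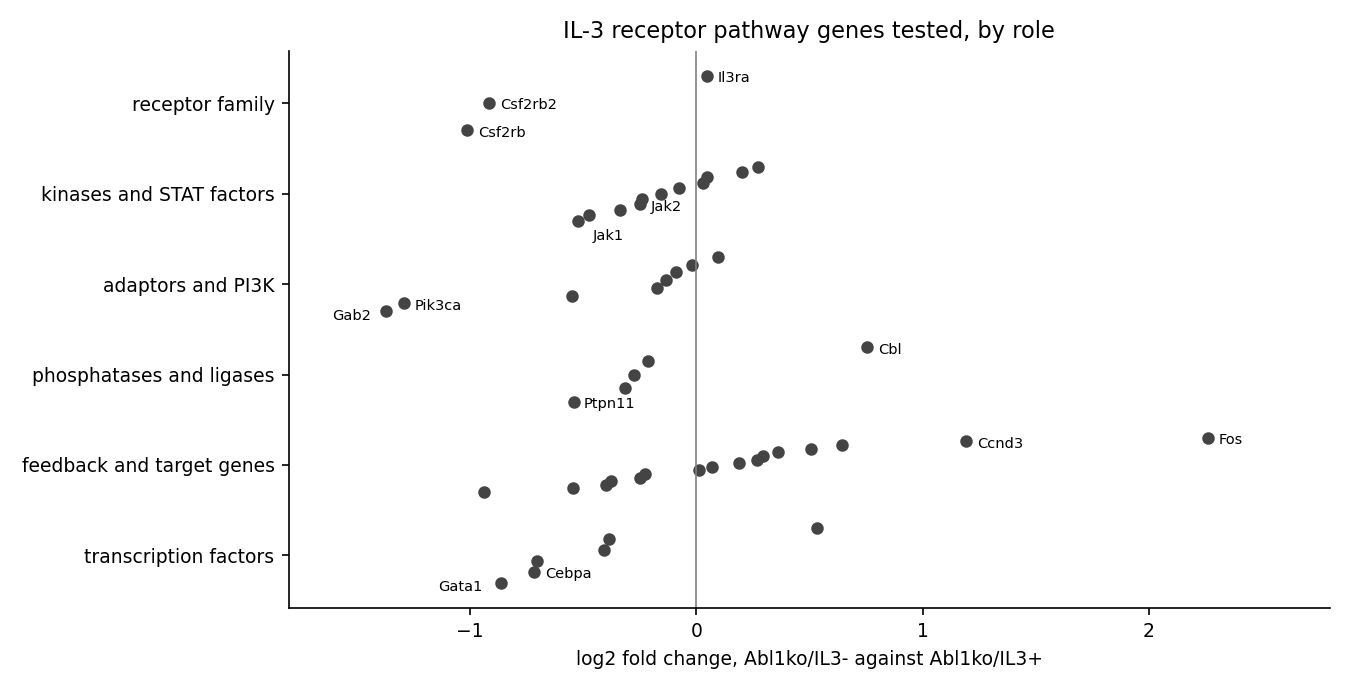
Log2 fold change of Abl1ko/IL3- against Abl1ko/IL3+ for the 3 receptor genes tested and for 46 pathway genes, grouped by role; within a role points are spread vertically by rank. Named are the receptor genes and some genes of each role whose values are given in the text. None of the points had an adjusted p under 0.05.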

How the data were processed

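RNA was depleted of ribosomal RNA and sequenced on an Illumina HiSeq instrument. By the methods, reads were aligned to GRCm38 with Rsubread and counted per gene with featureCounts; the submitters' processing notes name STAR, Cuffdiff and mm10. The authors deposited raw counts per gene and FPKM values, whose tool is not given in the sources used here. The counts were the same in both deposited tables. In each of 6 pairs the libraries differed beyond sampling noise (chi-square test).

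The filter was filterByExpr, the normalization TMM and the test the two-sided quasi-likelihood test of edgeR 4.0.16 in R 4.3.3, with Benjamini-Hochberg adjustment over 16535 genes and a threshold of 0.05. Standard errors and 95% intervals came from the F statistic. FPKM served to compare genes. The fits of edgeR, DESeq2 and limma were tested on simulated counts, with limma run on CPM there. The members and gene lists were chosen with earlier results of these data known. Genes named were the receptor chains, the ligands, the 2 tested genes of each role with the largest absolute fold change, the 3 nearest profiles and the 2 markers of each list with the highest mean FPKM. Any further gene was picked with its values in view, and 2 genes that these rules name are not reported here. Alternatives were DESeq2 1.42.0, library size only, other filters, the replicate block, limma 3.58.1 on log2(FPKM + 1) and log2(FPKM + 0.1), and leaving out each library.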

Additional observations from a re-analysis of the deposited data

How the results depend on the processing

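With 2 libraries a group, the fits can show only changes far larger than the spread between replicates, and a p above the threshold does not show equal levels. The number of receptor genes past the threshold was 0 under every alternative run (DESeq2, library size only, no filter, 10 counts in every library, both FPKM scales, the replicate block, the crossed pairs and without each library), and that of pathway genes was 0 too. For all genes it was 0, with DESeq2 271, and without a library from 0 to 22. Over the fits that leave out 1 library, which assume that the lone library of a group varies like the others, the log2 fold change ran from -0.53 to 1.08 for Il3ra, from -2.78 to -0.24 for Csf2rb, from -1.57 to 0.34 for Csf2rb2 and from -1.50 to -0.01 for their sum, and the difference in Csf2rb2 share from -5.56 to 23.7 percentage points. No other alternative changed a sign. Same-numbered libraries deviated from their group means with a correlation of -0.19 over genes. With 2 libraries a group the deviations in a group mirror each other, so this cannot show whether the numbers pair them. With the replicate block the log2 fold changes were 0.21 for Il3ra, -1.47 for Csf2rb, -0.62 for Csf2rb2 and -0.80 for the sum, and the block called 0 genes. With the pairs crossed, chosen after seeing the data, 0 genes were called. Csf2ra and Il5ra were fitted without a filter only.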

Other observations

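Among the 19 other receptor chains listed with counts, 16 were tested and 0 had an adjusted p under 0.05 in edgeR's quasi-likelihood test. An unadjusted p under 0.05 was reached by 5, where 5.91% of all genes reached it. These 5, named after their values were seen, were Crlf2, Il10ra, Il2rg, Il4ra and Il2rb. Crlf2, the receptor chain for TSLP, had 7.77 and 8.06 FPKM with IL-3 and 17.7 and 19.4 FPKM without (log2 fold change 1.198, adjusted p = 0.737). Il10ra, the ligand-binding chain for IL-10, had 1.28 and 1.21 FPKM with IL-3 and 3.55 and 7.05 FPKM without (log2 fold change 2.05, adjusted p = 0.727). Il2rg had a log2 fold change of -0.83 and Il4ra, the alpha chain for IL-4, one of -0.93 (adjusted p = 0.841 for both). Il2rb, the beta chain for IL-2 and IL-15, was low, with 0.858 and 0.533 FPKM with IL-3 and 0.107 and 0.282 FPKM without (log2 fold change -1.85, adjusted p = 0.841). Over the 16 chains tested, both IL3- libraries were above the IL3+ libraries for 5 and below them for 6, where 19.4% and 17.9% of all genes tested showed these patterns.

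Of the 6 eosinophil markers 4 were in the table. Prg2, the major basic protein, had 45.5 and 1973 FPKM with IL-3 and 716 and 577 FPKM without, and Epx, eosinophil peroxidase, had 797 and 304 FPKM with IL-3 and 243 and 141 FPKM without, while Il5ra, a receptor of that lineage, had counts in IL3+ replicate 1 only. Prg2, like Il3ra, was lowest in IL3+ replicate 1 and highest in IL3+ replicate 2. Other markers of the list ran differently. Epx was highest in IL3+ replicate 1. Siglecf and Ccr3 were lowest in that library too, but highest in IL3- replicate 2, at 46.1 and 1.36 FPKM. The part of these markers in the Il3ra level was not tested.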
